A study of Homo sapiens with 10 samples.

Results

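The comparison described here set the 3-miRNA mixed group, called the mixture below, against miR92b_inhibitor. Cells of both groups received the miR-92b inhibitor, and those of the mixture also received the miR-3124-5p mimic and the miR-200b-3p mimic. The question is which mRNAs differ when the 2 mimics accompany the inhibitor. Its members are 4 of the 10 libraries of the series, 2 of the mixture and 2 of miR92b_inhibitor, and every gene in them was considered. The cells were BEAS2B, an immortalized line derived from human bronchial epithelium. A lipid reagent (Lipofectamine) carried the small RNAs into the cells at 50 nM, and RNA was collected 48 h later. The remaining groups were miRcontrol, which received a scrambled sequence, miR3124_mimic and miR200b_mimic, each with 2 libraries. How the dose was divided in the mixture is not stated, so less inhibitor per cell and the presence of the mimics cannot be told apart. Each mimic may likewise have been at a lower dose in the mixture than alone. Neither is it stated whether the libraries of a group came from separate transfections, and the p-values below measure the spread between these libraries, which may be technical.

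A microRNA mimic is a synthetic duplex that is loaded into Argonaute like a natural microRNA, and an inhibitor is an antisense oligonucleotide that binds a microRNA and blocks it. MicroRNAs find their targets mainly through the seed, bases 2 to 8, which pairs with a complementary word in the 3′UTR of an mRNA and lowers its level or translation. The miR-200 family is known for its action on ZEB1 and ZEB2, transcription factors that silence E-cadherin and other epithelial genes. Loss of miR-200 accompanies the epithelial-mesenchymal transition (EMT), and its return favors the epithelial state. The mature sequences are printed with the seed in capitals because the words counted later derive from it. They come from RefSeq (GRCh38.p14), and all 4 lie on chromosome 1. The label of the inhibitor does not name its arm, so both arms of miR-92b are given.

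hsa-miR-200b-3p: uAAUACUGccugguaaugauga

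hsa-miR-3124-5p: uUCGCGGGcgaaggcaaaguc

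hsa-miR-92b-3p: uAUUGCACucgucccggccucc

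hsa-miR-92b-5p: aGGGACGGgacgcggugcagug

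No pair among the 4 shares a seed. CAGTATT pairs with the miR-200b-3p seed, and CCCGCGA with that of miR-3124-5p. ZEB1 (GRCh38, chr10:31318495-31529814, plus strand) has a 3′UTR of 2549 bases in GENCODE v29 with 6 copies of CAGTATT. ZEB2 (chr2:144364364-144524583, minus strand) has 5 copies in 5370 bases. ACTN1 (chr14:68874143-68979440, minus strand), which encodes the actin cross-linker alpha-actinin-1, has 1 copy of CCCGCGA in 716 bases. Stretches of 20 bases around such words are shown for these 3 genes, since ZEB1 and ZEB2 fell with the miR-200b-3p mimic and ACTN1 with the miR-3124-5p mimic, with the word in capitals. They lie at chr10:31528495-31528514 and chr10:31528565-31528584 for ZEB1, at chr2:144388989-144389008 and chr2:144388546-144388565 for ZEB2, and at chr14:68874709-68874728 for ACTN1.

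ZEB1 first site shown: atttttacctatCAGTATTa

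ZEB1 second site shown: cttcaaacctggCAGTATTa

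ZEB2 first site shown: actacaatgcatCAGTATTa

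ZEB2 second site shown: cattaattttgtCAGTATTa

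ACTN1: cgatcctccctgCCCGCGAa

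The 2 libraries of miR92b_inhibitor held 17279748 and 18146986 counts, and those of the mixture 18004955 and 18503890. Levels are given as CPM, counts scaled to the library total after RLE normalization, and are compared between groups and not between genes. All differences between groups come from edgeR's quasi-likelihood test, fitted on all 10 libraries, and adjusted p-values are Benjamini-Hochberg values over the 14884 genes tested. The SE after ± was derived from that test, as the size of the log2 fold change over the square root of its F statistic. A gene is said to have risen or fallen when its adjusted p was under 0.05, and is named called when it also differed by a fold of at least 2. The logarithm of the CPM correlated at 0.9972 between the libraries of miR92b_inhibitor and between those of the mixture, across genes, which are not independent replicates.

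With the mimics added, 2930 genes rose (19.7% of those tested) and 2960 fell (19.9%). Called genes leaned to the higher side. The mixture had 452 genes called higher (3.04%) and 168 called lower (1.13%), while the median gene moved by only -0.01 on the log2 scale. Both mixture libraries lay above both inhibitor libraries in 450 of the 452 genes called higher, and below them in 165 of the 168 called lower. Over all genes tested the same held for 33.2% and 34.8%. Because the calls were made on these same libraries, the separation of called genes follows largely from the call and is not separate support. Most called genes had low levels. Of the genes called higher, 345 had a mean of under 10 CPM over the 4 libraries and 21 had 100 or more. Of those called lower, 131 had under 10 CPM and 9 had 100 or more. Among all genes tested, 2038 had under 1 CPM, 3628 had 1 to 10 CPM and 2469 had 100 or more. Genes at higher levels passed the test more often. Of the 2469 genes, 704 rose and 830 fell, and of the 2038 genes, 135 rose and 59 fell. The shares over all genes tested, and this dependence on level, are the reference for the list counts below. In 55 genes called higher, the inhibitor libraries held at most 3 counts each, and in 16 called lower the mixture libraries did. For these genes the fold is given as a bound against 3 counts per library.

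**Figure D1:**
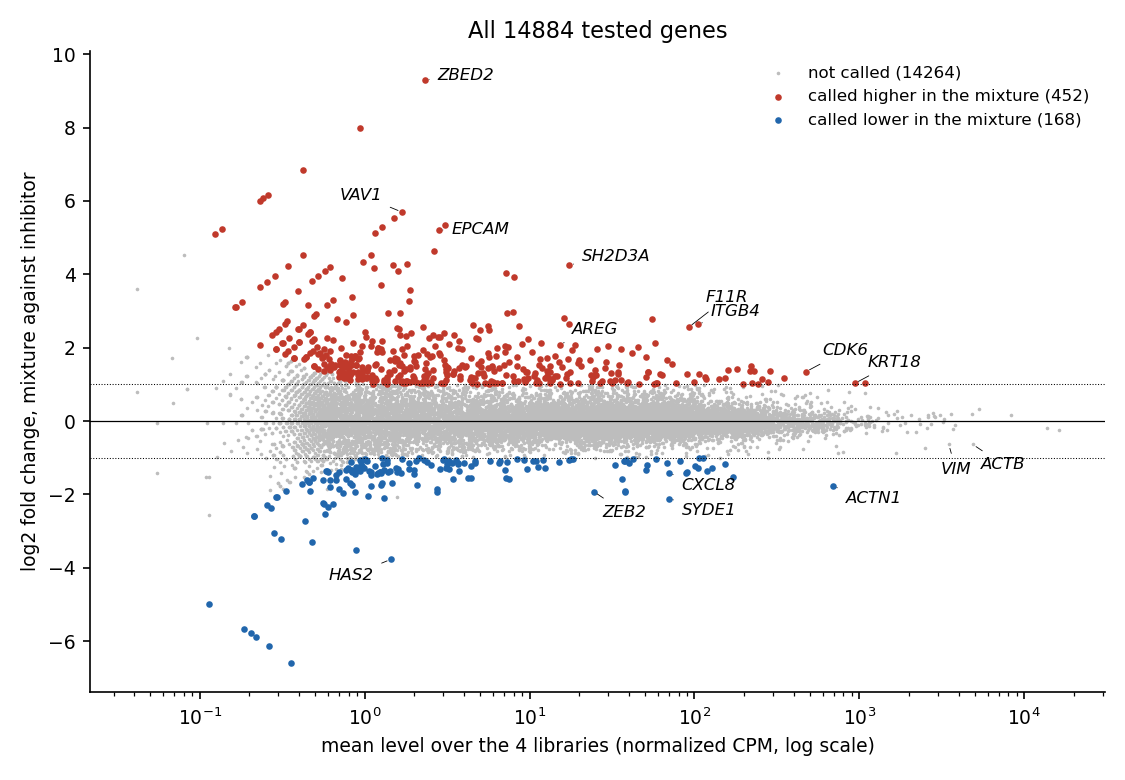
Difference between the mixture and miR92b_inhibitor (log2 fold change, vertical axis) against the mean level over the 4 libraries (CPM, logarithmic horizontal axis) for the 14884 genes tested. Colored points are the 452 genes called higher and the 168 called lower, most of which lie at low levels. Dotted lines mark a fold of 2, and named points include ZEB2, SYDE1 and ACTN1 on the lower side.

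ZEB1 and ZEB2 were lower in the mixture. ZEB1 measured 70.7 and 74.7 CPM in the inhibitor libraries and 29.7 and 28.5 CPM in the mixture (log2 fold change -1.32 ± 0.06 SE, adjusted p = 1.01e-22, edgeR). ZEB2 measured 39.9 and 37.7 CPM without the mimics and 10.3 and 10.1 CPM with them (-1.92 ± 0.09, adjusted p = 5.97e-23, edgeR). The libraries of the 2 groups did not overlap for either gene. Among the other EMT transcription factors, TWIST2 fell from 8.52 and 10.1 CPM to 7.08 and 7.21 CPM, but did not pass with DESeq2 (adjusted p = 0.138) or without either mixture library (0.101 and 0.0758) or the second inhibitor library (0.288). SNAI2 (-0.10), TWIST1 (0.16) and SNAI1 (0.53) did not pass the test. QKI, an RNA-binding protein that shapes splicing in the mesenchymal state, fell from 369 and 378 CPM to 188 in both mixture libraries, just short of a fold of 2. Of the 26 tested genes on a list of reported miR-200b targets, 14 fell and 5 rose (3 without the first mixture or the second inhibitor library), with a median log2 fold change of -0.22 against -0.01 for all genes tested.

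Genes of epithelial junctions, polarity and identity had the highest median change of the lists with more than 5 tested genes. Of its 38 tested members, 28 rose and 2 fell, and 19 were called higher. The median log2 fold change was 0.99, also with the genes at the floor set to their bound. E-cadherin itself (CDH1, chr16:68737225-68835548), the adhesion receptor of adherens junctions, had 1 count in each inhibitor library and 2.54 and 1.94 CPM in the mixture, at least 13.2-fold higher (adjusted p = 2.57e-10, edgeR). EPCAM, an epithelial adhesion molecule, measured 0.175 and 0.11 CPM without the mimics and 5.70 and 5.27 CPM with them, at least 32.3-fold higher. Both genes were near the limit of counting without the mimics and at low levels with them. CRB3, an apical polarity protein, measured 0.233 and 0.11 CPM in the inhibitor libraries and 2.82 and 1.83 CPM in the mixture. RAB17, an epithelial trafficking GTPase, measured 0.117 and 0.274 CPM against 5.14 and 5.06 CPM. The group values lay far apart in each of these genes.

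Among members that miR92b_inhibitor already expressed, F11R, the junctional adhesion molecule A of tight junctions, went from 27.2 and 26.4 CPM to 162 and 153 CPM (log2 fold change 2.56 ± 0.05, adjusted p = 4.76e-36, edgeR). ESRP2, a splicing regulator of epithelial cells, rose from 10.0 and 9.47 CPM to 24.5 and 23.3 CPM. Among the desmosomal proteins, desmoplakin (DSP) rose from 97.9 and 99.7 CPM to 258 and 266 CPM, and desmoglein 2 (DSG2) rose from 131 and 126 CPM to 329.7 and 333 CPM. Plakophilin 3 (PKP3) rose from 22.5 and 20.7 CPM to 98.8 and 88.7 CPM, and plakoglobin (JUP) from 26.1 and 25.7 CPM to 49.9 and 51.5 CPM. Occludin (OCLN, 0.58) and claudin 1 (CLDN1, 0.80) rose by less on the log2 scale. Claudin 4 (CLDN4) measured 0.467 and 0.712 CPM against 0.774 and 1.08 CPM and did not pass the test (adjusted p = 0.351, edgeR).

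Of the 8 keratins tested, which form the intermediate filaments of epithelial cells, 6 rose and 1 fell. KRT18 measured 634 and 601 CPM in miR92b_inhibitor and 1246 and 1269 CPM in the mixture (log2 fold change 1.03 ± 0.03, adjusted p = 1.45e-28, edgeR). KRT7 measured 730.3 and 698 CPM against 1465 and 1444 CPM. Their simple-epithelial partner KRT8 rose from 818 and 795 CPM to 1387 and 1357 CPM, short of a fold of 2. The summed level of the keratins was 2258 and 2172 CPM without the mimics and 4209 and 4187 CPM with them. KRT17, found in basal and stressed epithelia, was called higher at low levels (4.78 and 4.22 CPM against 8.63 and 9.69 CPM). KRT19 went the other way. It fell from 5.54 and 4.71 CPM to 2.49 and 2.74 CPM (log2 fold change -0.96 ± 0.19, adjusted p = 6.23e-05, edgeR).

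Mesenchymal markers did not move together. Of 10 tested, 4 rose and 3 fell, none was called, and the median log2 fold change was -0.11. Vimentin (VIM), the mesenchymal intermediate filament, fell from 4247 and 4232 CPM to 2684 and 2775 CPM (-0.64 ± 0.03, adjusted p = 1.91e-21, edgeR). Fibronectin (FN1) fell from 2490 and 2368 CPM to 2026 and 1953 CPM. N-cadherin (CDH2) measured 233 and 224 CPM against 237 and 239.9 CPM and did not pass the test. SPARC, a matrix protein, rose from 632 and 629.7 CPM to 1097 and 1093 CPM.

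**Figure D2:**
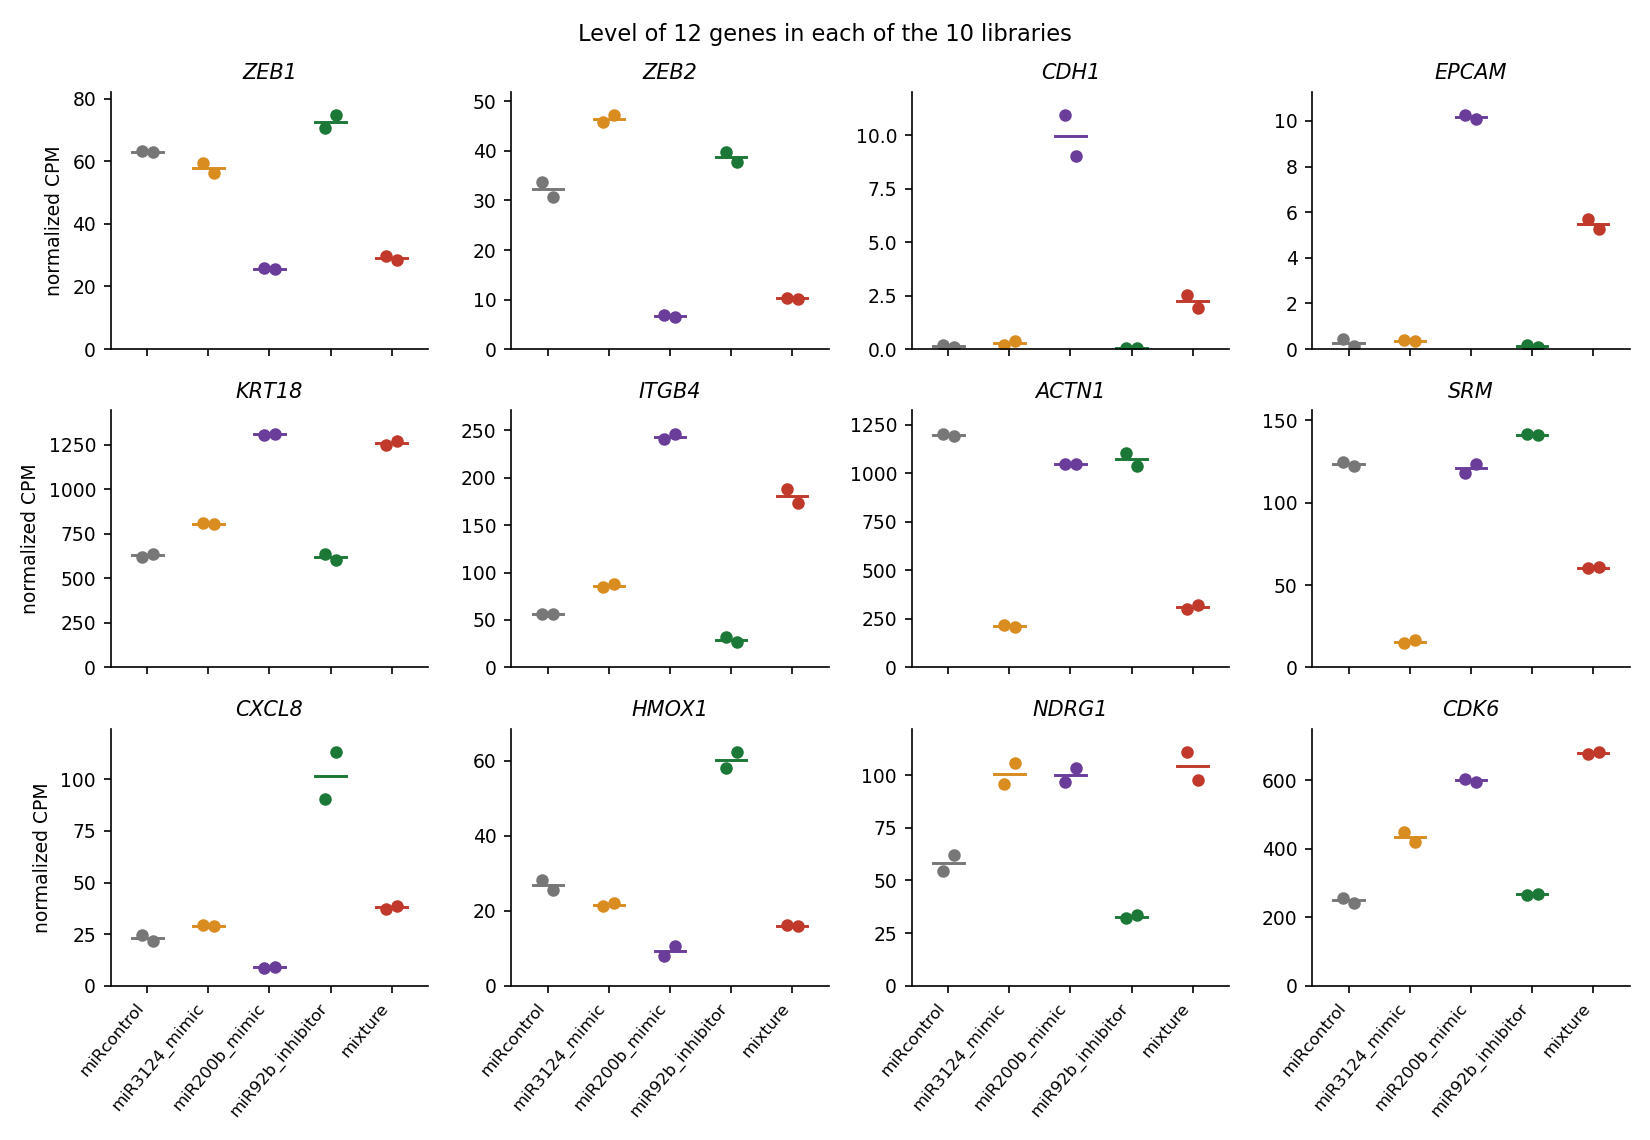
Levels (normalized CPM, axes from 0) of 12 genes in each of the 10 libraries, 2 for each of the 5 groups. Dots are libraries and short lines are group means. For ZEB1, ZEB2 and ACTN1 the mixture libraries lie below those of miR92b_inhibitor, and for CDH1, EPCAM, KRT18, ITGB4 and CDK6 they lie above.

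Of 26 tested integrins and laminins, receptors and ligands of cell-matrix adhesion, 18 rose, none fell and 8 were called higher, with a median log2 fold change of 0.39. Over all genes tested 19.7% rose, 19.9% fell and 3.04% were called higher. ITGB4 (chr17:75721328-75757818), the integrin beta-4 subunit of hemidesmosomes, measured 31.6 and 26.6 CPM in miR92b_inhibitor and 189 and 173 CPM in the mixture (2.64 ± 0.06, adjusted p = 1.49e-35, edgeR). Chains of its laminin ligand rose with it. LAMB3 rose from 155 and 167 CPM to 413 and 416 CPM, and LAMA3 rose by 0.30 on the log2 scale. ITGA2, a collagen receptor subunit, rose from 117 and 115 CPM to 313 and 341 CPM. LAMA5 rose from 39.3 and 35.5 CPM to 116 and 103 CPM, and LAMA4 from 11.8 and 7.5 CPM to 30.3 and 30.5 CPM. ITGA11, a collagen-binding integrin, was called higher at 0.408 and 0.547 CPM against 1.99 and 1.88 CPM. ITGB1, the common beta-1 subunit, rose by only 0.11 and did not pass without the second library of either group (adjusted p = 0.159 for the mixture, 0.201 for the inhibitor).

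Of 29 collagen and matrix genes tested, 22 rose and 3 fell, and the median log2 fold change was 0.32. COL1A1, a chain of type I collagen, measured 6.24 and 6.57 CPM against 21.6 and 22.3 CPM (1.78 ± 0.11, adjusted p = 5.17e-18, edgeR). CTGF, a matricellular protein and YAP target, rose from 212 and 215 CPM to 483 and 484 CPM. Another YAP target, ANKRD1, rose from 65.4 and 62.8 CPM to 130.5 and 139.6 CPM, while CYR61 rose by 0.25. Of the 20 Hippo pathway genes, 8 rose and 5 fell. POSTN, which encodes periostin, fell from 2.80 and 2.03 CPM to 0.663 and 1.13 CPM. LOX, a collagen cross-linking enzyme, fell from 267 and 258 CPM to 144 and 153 CPM. HAS2, a hyaluronan synthase, was called lower with 3.15 and 2.24 CPM in miR92b_inhibitor and 0.166 and 0.215 CPM in the mixture. Matrix genes thus included called members in both directions.

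Proteases and their regulators were mixed, with 6 of 23 tested genes risen and 8 fallen. The collagenase MMP1 fell from 2164 and 2140 CPM to 1151 and 1217 CPM, and its level in miRcontrol averaged 734 CPM. PLAT, the tissue plasminogen activator, was called lower (167 and 174 CPM against 68.8 and 65.0 CPM). PLAU, the urokinase gene, rose from 215 and 218 CPM to 427 and 421 CPM, so the 2 activators moved in opposite directions. ADAMTS1, a secreted matrix protease, fell from 13.6 and 14.0 CPM to 5.03 and 6.03 CPM.

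ACTN1 was the actin-associated gene with the strongest fall. Its level was 1104 and 1037 CPM in miR92b_inhibitor and 303 and 320.2 CPM in the mixture (log2 fold change -1.78 ± 0.04, adjusted p = 4.76e-36, edgeR). Beta-actin (ACTB) fell from 5926 and 5889 CPM to 3807 and 3815 CPM (-0.63 ± 0.03, adjusted p = 1.55e-22, edgeR). The non-muscle myosin MYH9 (-0.08, adjusted p = 0.0391, edgeR) missed the threshold under 6 other settings, among them leaving out either mixture library or the first inhibitor library (0.0518, 0.29 and 0.336), and cofilin (CFL1, 0.00) did not pass. On the actin and contractile list of 40 tested genes, 12 rose, 17 fell and ACTN1 was the only member called, with a median of -0.05. SYDE1, a GTPase-activating protein, fell from 113 and 114 CPM to 27.4 and 25.2 CPM (-2.11 ± 0.06, adjusted p = 2.30e-30, edgeR).

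Spermidine synthase (SRM), which makes spermidine from putrescine, fell from 142 and 141 CPM to 60.4 and 60.9 CPM (-1.22 ± 0.05, adjusted p = 1.38e-25, edgeR). Spermine synthase (SMS), the next enzyme of the path, rose from 351 and 329 CPM to 472 and 473 CPM. ODC1, the first enzyme, measured 509 and 499 CPM against 472 and 483 CPM and did not pass the test (adjusted p = 0.0871, edgeR). In the polyamine list of 18 genes, 5 rose and 4 fell (2 without the second inhibitor library). Its summed level was 2784 and 2763 CPM without the mimics and 2895 and 2926 CPM with them.

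Among ligands of the EGF family, amphiregulin (AREG) measured 6.59 and 5.04 CPM in miR92b_inhibitor and 23.2 and 26.1 CPM in the mixture (2.09 ± 0.12, adjusted p = 1.58e-19, edgeR). Epiregulin (EREG, 0.88) and HBEGF (0.47) rose by less. The receptor ERBB3 rose from 2.92 and 3.18 CPM to 11 and 11.4 CPM. EGFR itself measured 291 and 273 CPM against 293 and 307 CPM and missed the threshold (adjusted p = 0.0675, edgeR). Under the other settings the adjusted p ranged from 0.0302, without the first inhibitor library, to 0.522, without the second. Across this list 7 of 20 tested genes rose and 3 fell, and 1 fell when any of the 4 libraries was left out. Other growth factors also changed. PDGFB rose from 8.40 and 6.13 CPM to 32.9 and 27.7 CPM, whereas the KIT ligand (KITLG) fell from 55.1 and 55.5 CPM to 23.9 and 25.7 CPM. INHBA, the activin A subunit, rose from 48.4 and 53.6 CPM to 101 and 107 CPM. The Notch ligand JAG2 rose from 7.0 and 7.34 CPM to 15.0 and 14.6 CPM. SPRY1, a feedback inhibitor of receptor tyrosine kinase signaling, rose from 0.759 and 0.876 CPM to 2.10 and 1.94 CPM.

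In the IL-6 family and JAK-STAT list, 8 of 27 tested genes rose and 3 fell. The interleukin-6 receptor (IL6R) rose from 13.8 and 14.8 CPM to 41.4 and 45.6 CPM (1.61 ± 0.08, adjusted p = 1.93e-21, edgeR). IL11 rose from 93.0 and 95.1 CPM to 212 and 216 CPM. IL6 measured 3.97 and 3.39 CPM against 3.65 and 3.61 CPM and LIF measured 46.4 and 48.7 CPM against 49.1 and 52.5 CPM, and neither passed the test. The receptor and IL11 therefore changed while IL6 did not pass. CXCL8, a neutrophil-attracting chemokine, measured 90.3 and 113 CPM in miR92b_inhibitor and 37.2 and 38.8 CPM in the mixture (-1.42 ± 0.07, adjusted p = 8.78e-22, edgeR), beside a mean of 23.1 CPM in miRcontrol. CXCL2 fell from 3.97 and 4.76 CPM to 1.22 and 1.08 CPM, beside 1.68 CPM in miRcontrol. CXCL6 and CXCL1 fell too. The cytokine IL1A rose from 21.5 and 23.8 CPM to 48.4 and 50.5 CPM. On the list of chemokines, IL-1 and NF-kB genes, 6 of 21 rose and 6 fell.

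Of 31 mitosis genes tested, 30 fell and none rose, with a median log2 fold change of -0.36, and none reached a fold of 2. AURKA, a spindle kinase, fell from 212 and 207 CPM to 132 in both mixture libraries, and the proliferation marker MKI67 fell from 866 and 829 CPM to 660.1 and 648 CPM. CDK1, the remaining member, measured 129 and 119 CPM against 117 and 121 CPM (adjusted p = 0.298, edgeR). Summed over the list, the level was 7936 and 7599 CPM without the mimics and 6134 and 5999 CPM with them, while miRcontrol had 9988 and 9993 CPM. Of 33 DNA replication genes, 24 fell and 1 rose, with a median of -0.24. In bulk RNA, fewer dividing cells and less of these mRNAs per cell cannot be told apart.

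The G1 regulators held called genes in both directions. CDK6, a kinase that drives entry into S phase, rose from 266 and 269 CPM to 677 and 682 CPM (1.34 ± 0.04, adjusted p = 3.09e-31, edgeR), and cyclin D2 (CCND2) rose from 3.15 and 2.52 CPM to 10.2 and 9.20 CPM. RBL1, the pocket protein p107, fell from 133 and 123 CPM to 49.3 and 47.7 CPM (-1.40 ± 0.05, adjusted p = 1.46e-26, edgeR). Cyclin D1 (CCND1) fell by 0.31 and the CDK inhibitor CDKN1A rose by 0.61 on the log2 scale. In all, 4 of these 19 genes rose and 8 fell.

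Levels in miR92b_inhibitor and miRcontrol differed for many genes, also among those given above without a control value. In 320 of the 620 called genes (51.6%) both inhibitor libraries lay beyond both miRcontrol libraries, on the side opposite to the change. For the metabolic and stress genes that follow, control values are given in part. Genes of sterol and fatty acid synthesis rose in 20 of 32 cases and fell in 1, with a median of 0.28. Their summed level was 3150 and 2938 CPM in miR92b_inhibitor, 3996 and 3794 CPM in the mixture and 5200 and 5474 CPM in miRcontrol. HMGCS1, an early enzyme of the path, measured 47.4 and 46.0 CPM against 83.8 and 82.6 CPM, beside 87.0 CPM in miRcontrol. The mixture thus stood between the inhibitor and the control in the summed level of this list. For heme oxygenase 1 (HMOX1), an oxidative stress enzyme, the inhibitor libraries had 58.0 and 62.4 CPM, the mixture 16.1 and 15.8 CPM and miRcontrol a mean of 27.0 CPM (mixture against inhibitor -1.91 ± 0.08, adjusted p = 3.50e-24, edgeR). The ferritin light chain (FTL) fell from 1018 and 1044 CPM to 565 and 577 CPM, and NQO1 fell by 0.31 on the log2 scale. GCLM (-0.07) did not pass the test. Of 23 NRF2 pathway genes tested, 6 rose and 4 fell, and the transporter ABCC3 was called higher (5.95 and 5.04 CPM against 18.4 and 17.1 CPM).

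Hypoxia-responsive NDRG1 measured 32.0 and 33.6 CPM in miR92b_inhibitor and 111 and 97.7 CPM in the mixture, beside 58.3 CPM in miRcontrol (1.67 ± 0.07, adjusted p = 1.38e-25, edgeR). Carbonic anhydrase 9 (CA9), which is switched on in hypoxia, measured 1.81 and 2.08 CPM against 5.31 and 4.68 CPM, beside 8.46 CPM in miRcontrol (1.35 ± 0.22, adjusted p = 1.47e-06, edgeR). VEGFA, another gene of this program, measured 144 and 152 CPM against 131 and 140.2 CPM (adjusted p = 0.0268, edgeR) and did not pass without the first mixture library (0.306), without the second inhibitor library (0.278) or with DESeq2 (0.0951). Of 29 hypoxia and glycolysis genes, 18 rose and 4 fell, with a median of 0.26.

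Interferon-stimulated genes rested on single libraries. Of 40 tested, 14 rose and 3 fell, but in 30 of the 40 (75%) the second library was the higher in both groups, against 23.6% of all genes tested. MX1, an antiviral GTPase, measured 1.46 and 4.76 CPM in miR92b_inhibitor and 3.54 and 8.34 CPM in the mixture, and the groups overlapped. IFI6 measured 32.7 and 32.5 CPM against 37.5 and 68.6 CPM, and ISG15 measured 29 and 32.2 CPM against 27.4 and 47.2 CPM. With DESeq2 7 genes of the list rose and 3 fell, and MX1 (adjusted p = 0.309), IFI6 (0.0522) and ISG15 (0.4997) did not pass. Without the second mixture library MX1, IFI6 and ISG15 did not pass and 4 genes of the list rose, and 5 fell, and without the first 18 rose. Without the first inhibitor library 7 rose and 5 fell, and without the second 17 rose. Of 11 genes of MHC class I presentation, 7 rose and none fell (4 to 6 rose when 1 library was left out), and HLA-B measured 52.3 and 50 CPM against 69.6 and 66.8 CPM.

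Proteins that process microRNAs were also listed. Of 13 genes, 8 rose (6 or 7 when 1 library was left out) and 1, DROSHA, fell, with a median of 0.20. Whichever library was left out, DROSHA did not pass, nor did it with TMM factors, library totals, DESeq2, no filter or the 4 libraries alone. DICER1, which cuts microRNA precursors, rose from 156 and 161 CPM to 245 and 256 CPM, and AGO2, the slicing Argonaute, rose from 225 and 236 CPM to 291 and 287 CPM. Of 14 housekeeping genes tested, 4 rose (2 without the second inhibitor library) and 6 fell with a median of 0.00. GAPDH fell by 0.11 on the log2 scale, with an adjusted p of 0.0554 without the second mixture library.

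**Figure D3:**
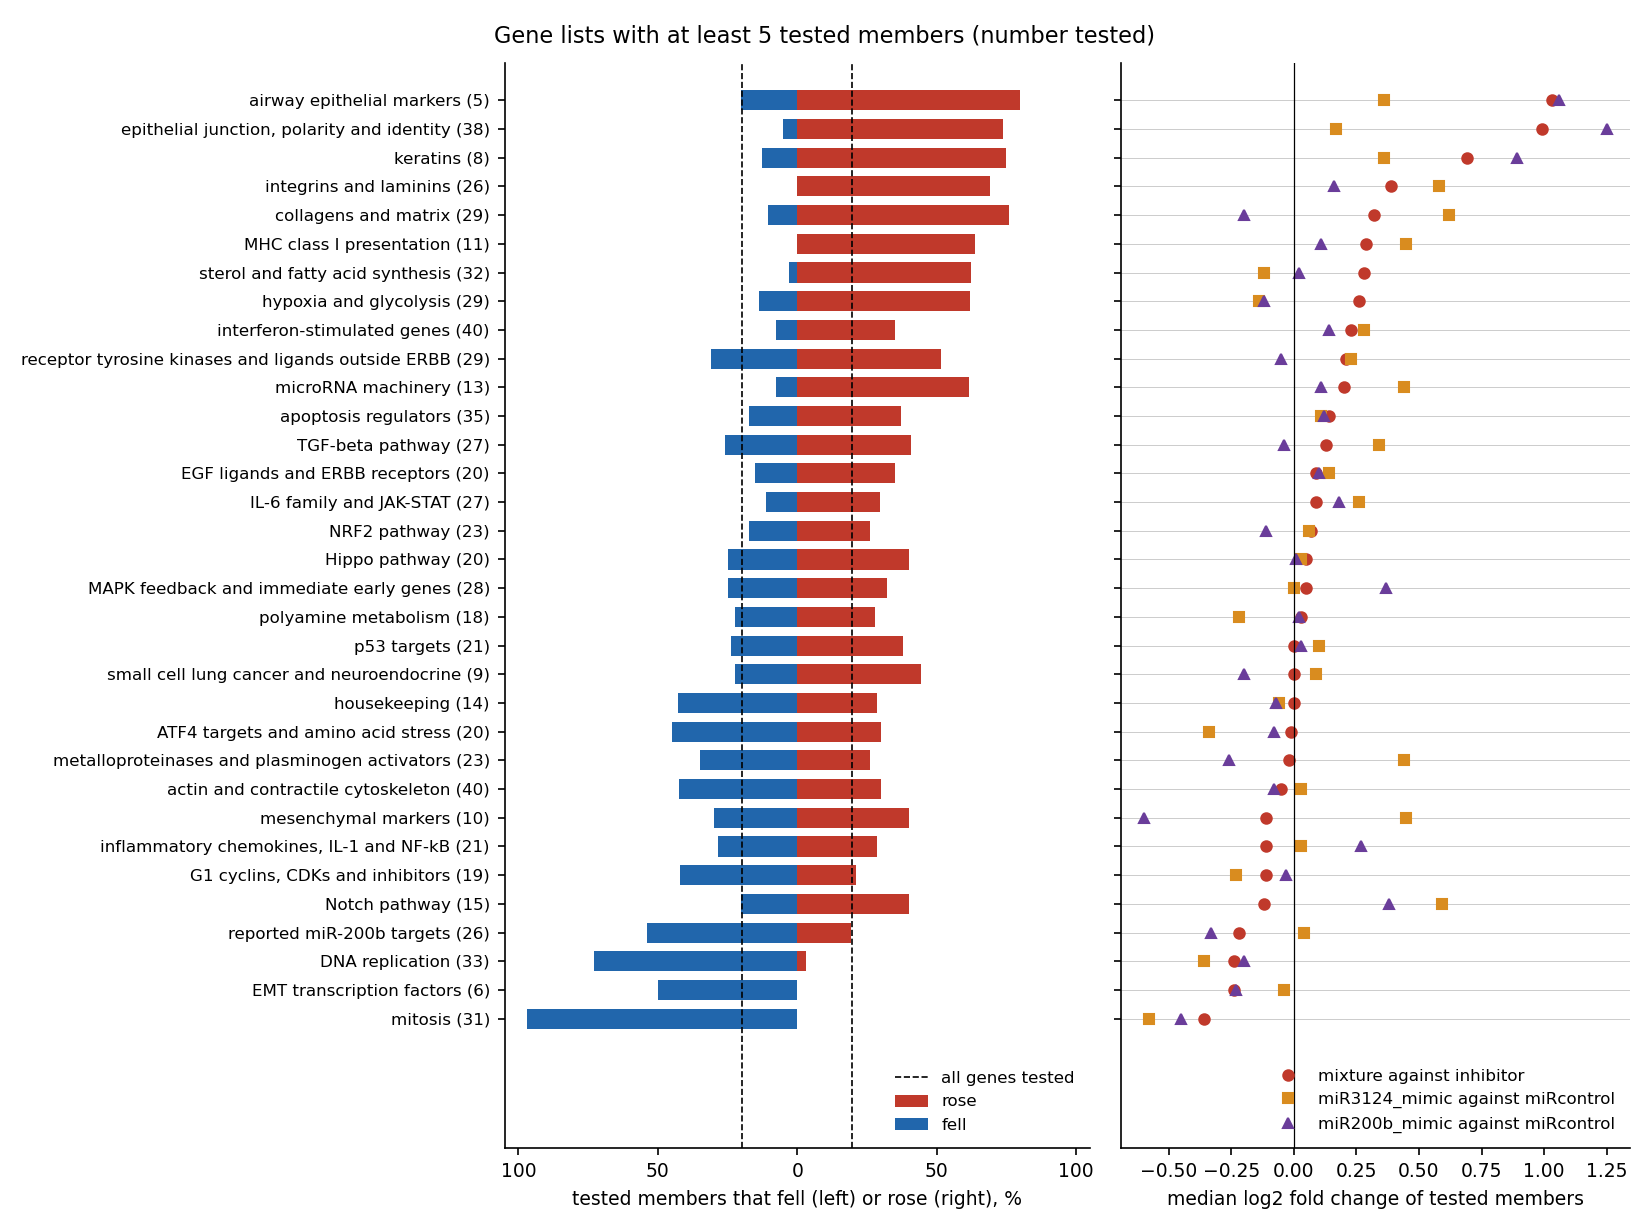
Left, percent of the tested genes of each list that rose or fell in the mixture against miR92b_inhibitor, with dashed lines at the 19.7% and 19.9% of all genes tested. Right, median log2 fold change of each list for the mixture against miR92b_inhibitor and for each single mimic against miRcontrol. The epithelial junction list stands far above the line for rising genes and the mitosis list above that for falling genes.

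Several genes with the largest rises lie outside these lists. SH2D3A, a signaling adaptor, went from 1.75 and 1.70 CPM to 34.1 and 32.1 CPM (4.26 ± 0.14, adjusted p = 3.38e-29, edgeR). ZBED2, a zinc-finger transcription factor, had no count in either inhibitor library and 4.81 and 4.47 CPM in the mixture, at least 27.3-fold higher. SCEL, a protein of the cornified envelope, was at least 14.7-fold higher. VAV1 and LCK, signaling proteins best known from blood cells, were at least 19.5-fold and 17.6-fold higher. The blood cell markers CD3E, MS4A1 and HBB had no count in any of the 4 libraries, and PTPRC reached at most 0.117 CPM. CD68, the most abundant blood cell marker, measured 38.8 and 40.7 CPM in miR92b_inhibitor and 22.6 and 23.9 CPM in the mixture. Among the largest falls besides HAS2 and SYDE1, DUSP19, a dual-specificity phosphatase, measured 2.04 and 2.19 CPM against 0.387 and 0.592 CPM. TMEM158 fell from 62.0 and 58.4 CPM to 16.3 and 15.3 CPM.

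The labeled origin of the cells was checked against airway markers. The 5 markers tested were KRT8, KRT18, KRT19, EPCAM and CDH1, and KRT8 was the most abundant. The summed level of the 15 markers was 1457 and 1400 CPM in miR92b_inhibitor and 2644 and 2637 CPM in the mixture. The secretory markers SCGB1A1, SCGB3A1, MUC5AC and MUC5B and the ciliated cell marker FOXJ1 had no count in these libraries. The basal cell markers KRT14 and TP63 stayed at or below 0.11 CPM and KRT5 at or below 0.484 CPM. Fibroblast markers COL3A1, DCN and FAP were at 0, and the sum of the 8 fibroblast markers, of which THY1 was the most abundant, was 221.4 and 210.8 CPM against 195.3 and 196.0 CPM. Of the 2 tested fibroblast markers COL1A1 rose and THY1 fell, of the 2 tested blood cell markers CD68 fell, and the single tested endothelial marker, CDH5, did not pass the test. The sum of the 7 endothelial markers stayed at or below 2.15 CPM.

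The same genes were then followed in the single-mimic groups, each set against miRcontrol in the same fit. These comparisons use none of the 4 libraries above, but share their control libraries with each other. The miR-3124-5p mimic alone had 800 genes called higher (5.37%) and 410 lower (2.75%). The miR-200b-3p mimic alone had 405 called higher (2.72%) and 322 lower (2.16%). Of the 452 genes called higher in the mixture, 229 (50.7%) were also called higher with miR200b_mimic and 156 (34.5%) with miR3124_mimic, and 127 with neither. These are 56.5% of the genes called higher with miR200b_mimic and 19.5% of those with miR3124_mimic. Of the 168 called lower, 66 (39.3%) were called lower with miR3124_mimic and 42 (25%) with miR200b_mimic, and 75 with neither. These are 16.1% and 13.0% of the genes called lower with the respective mimic. Calls in the opposite direction numbered 5 for miR3124_mimic and 3 for miR200b_mimic among the 452, and 11 and 1 among the 168.

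The change from inhibitor to mixture was tested against each single-mimic change by an interaction term in the same model. Since the dose of each mimic in the mixture is not stated, a lower dose and an effect of the combination cannot be told apart in these tests. It differed from that of miR3124_mimic in 4691 genes (31.5%) and from that of miR200b_mimic in 3666 genes (24.6%). ZEB1 fell by 1.32 in the mixture and by 1.29 with miR200b_mimic, whereas miR3124_mimic gave -0.13. The test found a difference from the miR3124_mimic change (adjusted p = 1.1e-15, edgeR) and none passing from the miR200b_mimic change (adjusted p = 0.88, edgeR). ZEB2, KRT18, KRT7, CXCL8 and CDK6 likewise differed from the miR3124_mimic change only. So did EPCAM and CDH1, which were at the floor in miR92b_inhibitor, CDH1 also in miRcontrol (3 and 2 counts). These tests used the fitted changes and not the bounds. The mixture levels of both genes, given above, lay below their means of 10.2 and 9.97 CPM in miR200b_mimic. A p that misses the threshold does not show that 2 changes are equal.

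ACTN1, SRM, VIM and ACTB formed another kind of pattern. The log2 fold change of ACTN1 was -1.78 in the mixture, -2.49 with miR3124_mimic and -0.19 with miR200b_mimic. SRM had -1.22, -2.97 and -0.03, and VIM had -0.64, -2.23 and -0.35. In each of these the change in the mixture lay between those of the single mimics and differed from both. The part of the mimic dose in this was not tested. The levels of SRM show the same order, with 60.4 and 60.9 CPM in the mixture and a mean of 15.7 CPM in miR3124_mimic. IL11, CTGF, ANKRD1 and RBL1 were also intermediate and different from both. ITGA11, IL6R, ABCC3, KITLG and SYDE1 differed from the miR200b_mimic change only, as did CRB3, which had 1 count in each miRcontrol library. LAMA5 changed by 1.55 in the mixture against 1.67 with miR3124_mimic, and differed from the miR200b_mimic change (0.27). KRT19 fell by 0.96 in the mixture and differed from both single changes, which were -3.40 with miR3124_mimic and 0.82 with miR200b_mimic.

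Of the 60 genes chosen by rule, 8 changed by more in the mixture than with either mimic alone and differed from both, namely VAV1, CXCL2, HMOX1, SPRY1, ITGB4, LAMA4, NDRG1 and CA9. VAV1 had 1 count in each inhibitor library, so its fitted change and its tests rest on the floor. In all 8 both inhibitor libraries lay beyond both miRcontrol libraries, on the side opposite to the change, as they did in 29 of the other 52 named genes and in 320 of the 620 called genes (51.6%). Such a starting level enters the change by arithmetic, since the change is taken from the inhibitor libraries. ITGB4 had a mean of 56.5 CPM in miRcontrol and 31.6 and 26.6 CPM in miR92b_inhibitor, with 243 CPM in miR200b_mimic and 189 and 173 CPM in the mixture. Its mixture level was thus below that of the single mimic although its fold was larger. CA9 averaged 4.10 CPM in miR3124_mimic and 4.04 CPM in miR200b_mimic, below the 8.46 CPM of miRcontrol, and the mixture had 5.31 and 4.68 CPM. In 25 of the 60 genes the mixture differed from the miR3124_mimic change only, in 6 from the miR200b_mimic change only, in 8 from both with a value between them, and in 13 from neither. TMEM158, IL1A, CCND2, KRT17 and JAG2 are among the last.

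**Figure D4:**
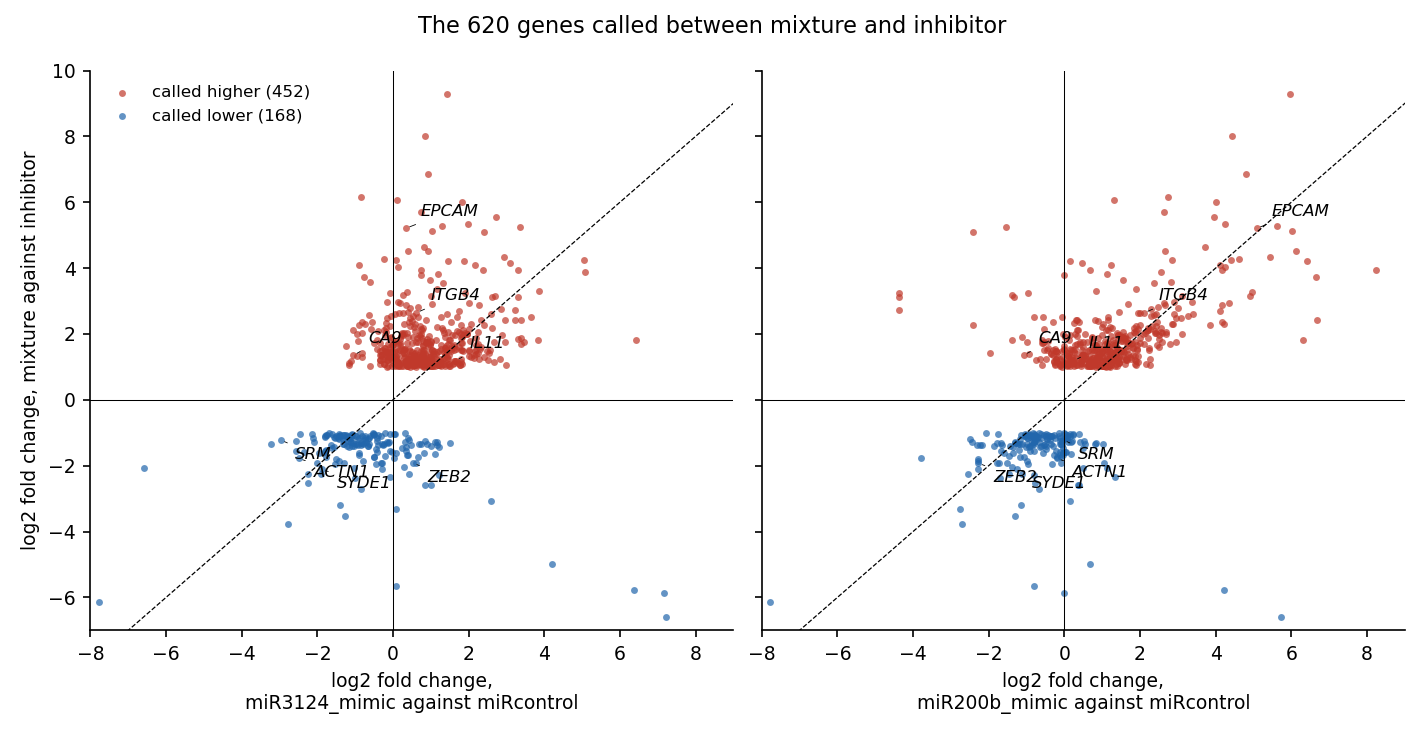
Log2 fold change of the mixture against miR92b_inhibitor (vertical axes) and of each single mimic against miRcontrol (horizontal axes) for the 620 called genes, with a dashed line where both are equal. EPCAM and ZEB2 lie near the line for miR200b_mimic, and ACTN1 and SRM lie between the line and zero change for miR3124_mimic.

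Finally, genes were grouped by the seed words in their 3′UTRs. The longest coding transcript in GENCODE v29 gave a 3′UTR for 12239 tested genes, of which 22.4% rose and 22.3% fell. Words were searched on the transcript strand only. CAGTATT was present in 2386 of these genes (19.5%), and 661 of them (27.7%) fell against 20.9% of genes without it. The share that fell was 26.6% with 1 word, 29.9% with 2 and 35.8% with 3 or more. It was 32.1% where at least 1 word was followed by A. Genes with the word had longer 3′UTRs (median 3071.5 bases against 1054), so the shares were also taken by length. In 3′UTRs of up to 500 bases 44.8% of genes with 1 or more words fell against 22.4% without, and above 4000 bases 24.1% fell against 16.2%. The word went with a higher share of falling genes in all 5 length classes and with a lower share of rising genes in all 5, from 8.62% against 16.1% in the shortest class to 28.3% against 32.4% in the longest. Pooled over lengths, the share that rose was 23.1% with the word and 22.2% without it. The shift itself was small, with a median log2 fold change of -0.04 for genes with the word.

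CCCGCGA was rarer, in 76 genes (0.621%), of which 39 (51.3%) fell and 8 rose. Their median log2 fold change was -0.28 in the mixture against inhibitor, -0.41 with miR3124_mimic and -0.05 with miR200b_mimic. Of the 18 genes whose word was followed by A, 12 fell. By length of the 3′UTR the share that fell was higher with the word in 4 of 5 classes, and was 14.3% against 22.9% in the 7 genes of up to 500 bases. Only 20 genes held both words. The 5 genes with the word that fell most, picked after their values were seen, were ACTN1, DNAL4, NMT2, ST3GAL2 and ACVR1B. NMT2, an N-myristoyltransferase, fell from 186 and 174 CPM to 77.1 and 72.8 CPM. ACVR1B, an activin receptor, fell from 33.8 and 32.4 CPM to 17.1 and 16.0 CPM. ST3GAL2, a sialyltransferase, fell from 50.9 and 52.8 CPM to 25.7 and 24.1 CPM. Their words are shown with those of SYDE1, RBL1 and HMOX1, which fell and hold CAGTATT, and of CDK6, which rose and holds it too.

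NMT2 (chr10:15108168-15108187): aaagagcctgtaCCCGCGAc

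ST3GAL2 (chr16:70381607-70381626): caggaccagcaaCCCGCGAc

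ACVR1B (chr12:51994376-51994395): gtagtgggaagtCCCGCGAa

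SYDE1 (chr19:15114364-15114383): tgccaaccaaatCAGTATTa

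RBL1 (chr20:36997355-36997374): agggatgcttttCAGTATTa

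HMOX1 (chr22:35394051-35394070): cagcctcaaatgCAGTATTt

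CDK6 (chr7:92609228-92609247): ggaaggatattgCAGTATTt

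NMT2, ST3GAL2, RBL1 and CDK6 are read on the minus strand and ACVR1B, SYDE1 and HMOX1 on the plus strand. A match describes the sequence and is not evidence of binding. INHBA with 3 words, ITGA11 with 2 and JAG2 with 1 also hold CAGTATT and were called higher. SRM, VIM and ACTB hold neither word in the 3′UTRs used here. For the inhibitor, which both groups received, GTGCAAT of miR-92b-3p was present in 1604 genes, of which 28.4% rose and 19.8% fell. CCGTCCC of miR-92b-5p was present in 512 genes, of which 27.3% rose and 23.8% fell. Their median 3′UTR lengths were 3259 and 2283.5 bases against 1343 for all genes, and rises were more frequent in longer 3′UTRs with or without these words. Within length classes, the share that rose with GTGCAAT against that without it ran from 20.6% against 15.9% in the shortest to 31.1% against 29.8% in the longest, and was higher with the word in all 5. With CCGTCCC it was higher in 4 of 5, and 18.6% against 19.6% between 500 and 1000 bases. The share that fell was also higher with CCGTCCC in every class but the shortest, where it was 12.5% against 23.0%. Between 1000 and 2000 bases it was 29.3% against 22.4%.

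**Figure D5:**
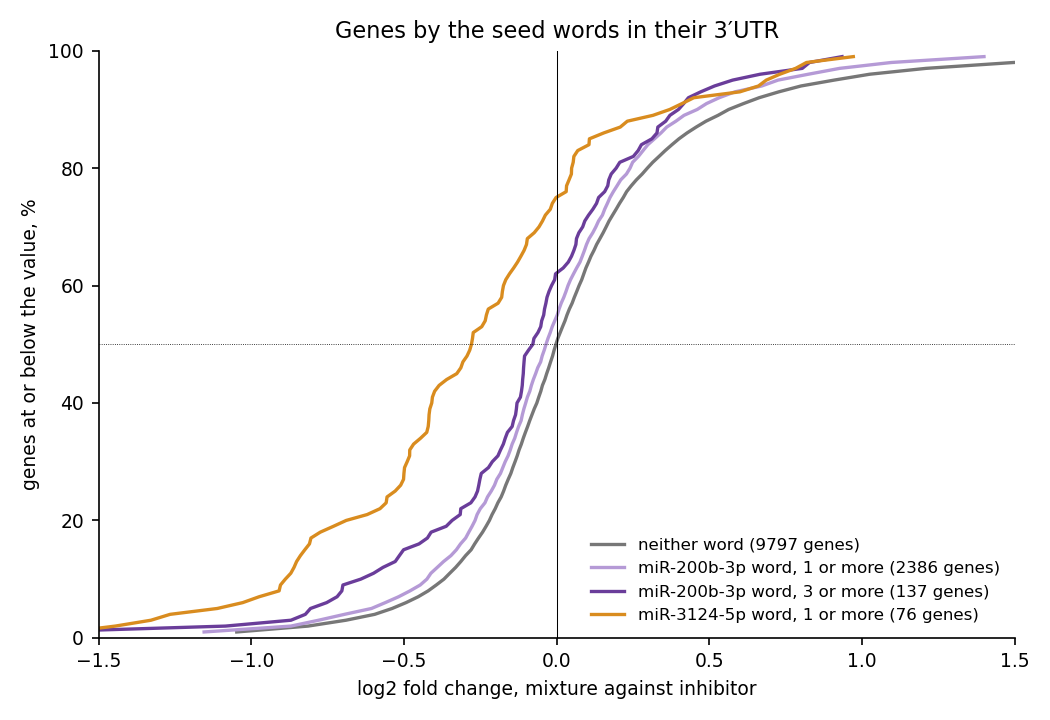
Cumulative share of genes (vertical axis, percent) by log2 fold change of the mixture against miR92b_inhibitor (horizontal axis) for genes with neither word, with 1 or more and with 3 or more CAGTATT words, and with CCCGCGA. The curve of the 76 genes with CCCGCGA lies to the left of the others over most of its length, toward lower levels in the mixture.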

How the data were processed

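Poly(A)-selected RNA was prepared with a directional kit and sequenced as paired-end 100-base reads. Per the labels and the study's methods, reads were checked with FastQC, cleaned with FASTX_Trimmer and BBMap and aligned to GRCh38 by TopHat, and the authors deposited raw read counts per gene, without normalization. The counting tool, its annotation and its strand setting are not given in the sources used here.

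Each file had 58173 rows, and summing the 5771 that repeated a symbol left 52402 symbols. The model was fitted in R 4.3.3 (edgeR 4.0.16, with limma 3.58.1) after filterByExpr, with RLE factors of 0.985 to 1.016, all 10 libraries and no covariates (common dispersion 0.000752, 5 residual degrees of freedom). Library totals ranged from 13587666 to 18503890 counts. Genes with no more than 3 counts in both libraries of a group were placed at the floor, which covers counting error only. When the mixture against miR92b_inhibitor was simulated over 14884 genes, 192 of 200 changed genes were recovered, and 9 unchanged genes passed the adjusted threshold. The changed genes were given folds of at least 2 and drawn only above a minimum mean count. A single dispersion, larger than the common dispersion of the data, was set for all genes. Recovery of genes with fewer counts, among them those at the floor, was thus not simulated.

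The rule for named genes took, among called genes with a mean of at least 1 CPM and no overlap between groups, the 12 that rose most, the 12 that fell most and up to 3 per list and direction, and added ZEB1, ZEB2, CDH1, VIM, EGFR, IL6R, SRM and ACTB, 60 in all. Further genes are examples from 36 lists, picked after their values were seen. The members, lists and rules were chosen with earlier results of these data known. Lists were counted, not tested. Alternatives were TMM factors, library totals, DESeq2 1.42.0, the exact test of edgeR, the 4 libraries alone, no filter, a minimum of 10 counts in every library, a replicate block, 3′UTRs of 200 to 5000 bases, words in any coding transcript, and leaving out each library in turn.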

Additional observations from a re-analysis of the deposited data

Results flagged for a closer look

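CA9, a carbonic anhydrase of the hypoxia program, moved in opposite directions in the comparisons set side by side. It rose in the mixture against miR92b_inhibitor, while both single mimics fell against miRcontrol (-1.05 with miR3124_mimic and -1.07 with miR200b_mimic). Every library of each treated group followed the direction of its group. The log2 change in the mixture minus that of miR3124_mimic was 2.40 (adjusted p = 2.1e-09), and minus that of miR200b_mimic it was 2.43 (adjusted p = 3.8e-09, interaction terms in edgeR). Both tests include the low starting level of CA9 in miR92b_inhibitor, and the part of that level in the difference was not tested.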

How the results depend on the processing

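The count of genes called higher (452) fell to 260 when at least 10 counts were required in every library, and that of genes called lower (168) to 82, since fewer genes could be tested. With DESeq2 the genes called lower numbered 99, and those whose change differed from that of miR200b_mimic 2351 instead of 3666. The cause was not tested. All 417 genes called by DESeq2 were among the 620. With 1 library left out, not all of the 620 were called again and some other genes were called. Without 1 library, 394 to 438 genes were called higher and 146 to 169 lower, 2303 to 2410 rose and 2277 to 2382 fell, and 4009 to 4131 and 2912 to 3159 genes differed from the changes of miR3124_mimic and miR200b_mimic. By replicate number, the deviations of the libraries correlated at 0.0784 between the 2 groups over 9268 genes. Across all pairs of groups the correlation ran from -0.1004 to 0.0784. Such a correlation over many genes does not show whether a smaller set shared a shift by replicate number. Among the interferon-stimulated genes, the second library was the higher in both groups in 30 of 40. A fit with the replicate block called 447 genes higher and 166 lower. The difference in median log2 fold change between genes with and without a word was -0.03 for CAGTATT and -0.27 for CCCGCGA, and became -0.048 and -0.31 in 3′UTRs of 200 to 5000 bases (without 1 library -0.0399 to -0.0268 and -0.33 to -0.25). Of 703 values of named genes under alternatives, 696 stayed on their side of the threshold and none reversed. Most of these genes were chosen because they were called in these same libraries without overlap, so this outcome was largely fixed by the choice. It does not carry over to the called genes as a whole. The exceptions were SCG2, which lost its call with DESeq2 (adjusted p = 0.0985), without the second mixture library (0.176) and without the first inhibitor library (0.194), and EGFR, which passed under 4 settings (0.0302 to 0.0376) and had 0.425 and 0.522 without the second mixture or the second inhibitor library. Of 431 list medians under alternatives, 61 moved by more than the spread between replicates. Among 74 genes named as examples, 9 lost significance under some setting, and ISG15 changed sign without the second mixture library (log2 fold change -0.16). The median of all genes was -0.0093 and became -0.007 with TMM factors, -0.0018 with library totals and -0.0091 with DESeq2. Genes under 1 CPM rest on few counts, and for them a difference may not be detectable at this depth.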

Other observations

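Of 27 tested genes of the TGF-beta pathway, 11 rose and 7 fell, with a median log2 fold change of 0.13 (4 fell without the second mixture library). Its type II receptor TGFBR2 rose from 479 and 451 CPM in miR92b_inhibitor to 821 and 839.9 CPM in the mixture, and LTBP2, a binding protein of the latent family, rose from 88.7 and 84.2 CPM to 144 and 136 CPM. Of 15 Notch pathway genes, 6 rose and 3 fell (median -0.12), with 3 rising without the first mixture library, and the ligand JAG1 rose from 36.1 and 41.6 CPM to 58.8 and 62.0 CPM. Of 28 MAPK feedback and immediate early genes, 9 rose and 7 fell. The ERK phosphatases DUSP5 and DUSP6 rose from 42.9 and 44.0 CPM to 78.4 and 75.0 CPM and from 31.0 and 32.0 CPM to 48.2 and 49.6 CPM, and the ETS factor ETV4 rose from 27.1 and 30.2 CPM to 46.6 and 44.3 CPM. Among 29 receptor tyrosine kinases and ligands outside the ERBB family, 15 rose and 9 fell, and IGFBP3, a binding protein of insulin-like growth factors, fell from 117 in both inhibitor libraries to 62.2 and 58.3 CPM.

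Apoptosis regulators rose in 13 of 35 cases and fell in 6. The death receptor TNFRSF10A rose from 23.0 and 23.4 CPM to 36.9 and 37.5 CPM, and PMAIP1 (NOXA) fell from 78.1 and 86.2 CPM to 44.1 and 45.8 CPM. Of 21 p53 targets, 8 rose (5 without the first mixture library) and 5 fell (3 without the first inhibitor library), with a median of 0.00. Of 20 ATF4 targets and amino acid stress genes, 6 rose (3 with DESeq2) and 9 fell. DDIT3 (CHOP) fell from 31.5 and 32.0 CPM to 17.7 and 21.7 CPM, and CHAC1, another gene of that response, rose from 5.19 and 5.97 CPM to 9.79 and 9.09 CPM. Of the 9 tested genes of small cell lung cancer and neuroendocrine cells, 4 rose and 2 fell. With DESeq2 1 rose and none fell, and when 1 library was left out 1 or 2 rose and 1 or 2 fell. Synaptophysin (SYP) had 0.467 and 0.274 CPM in the inhibitor libraries and no count in the mixture (DESeq2 gave no adjusted p), and SCG2 measured 2.16 and 1.53 CPM against 1.05 and 0.70 CPM.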
